A study of Mus musculus with 4 samples.

Results

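The CD2 and SLAM (signalling lymphocyte activation molecule) receptors are a family of immunoglobulin-domain proteins on the surface of lymphocytes. They were read here through every array probe whose gene name is Cd2, Cd48, Cd244 (Cd244a in current nomenclature), Slamf1, Slamf6, Slamf7, Cd84, Ly9 or Sh2d1a, the last being the adaptor SAP that most of them signal through. The array carried 22 such probes for these 9 genes, out of 56310 probes with a usable spot on every array. RNA was hybridised to 4 one-colour Agilent arrays, with 2 arrays per genotype. Regulatory T (Treg) cells made in culture from C57BL/6 mice were compared between Junbfl/fl controls and Junbfl/flCd4-Cre mice. Both genotypes carry the floxed allele of Junb, which encodes a subunit of AP-1, and only the second carries Cre, which the Cd4 promoter drives in T cells. Both were grown alike: naive CD4 T cells were sorted and stimulated for 3 days on bound anti-CD3 (1 μg/ml) and with anti-CD28 (0.5 μg/ml), TGF-β1 (5 ng/ml) and antibodies against IFN-γ and IL-4 (5 μg/ml each). The extraction label names colon, whereas the remaining labels name cultured Treg cells.

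Members of the family bind one another across the gap between adjoining cells. CD2, a costimulatory and adhesion receptor of T and NK cells, binds CD48 in the mouse. CD48 is a lipid-anchored surface protein of most leukocytes that is also the ligand of CD244 (2B4). SLAMF1, SLAMF6 (Ly108), SLAMF7, CD84 and LY9 (CD229) each bind a second copy of themselves on the neighbouring cell. Most carry tyrosine motifs in their tails that dock SAP, which recruits the kinase FYN. Without SAP the same motifs can engage inhibitory phosphatases, and T cell help to B cells is impaired.

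The probe sequences matter for the results, because the probes of 1 gene did not always read alike. The Cd244 probes are shown first. A_52_P541344 spans an intron and is given whole, and the others are given by their first 30 bases. Capitals mark 18 bases that A_55_P1977812 shares with probes of other genes.

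Cd244 A_52_P541344: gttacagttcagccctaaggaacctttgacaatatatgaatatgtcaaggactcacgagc

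Cd244 A_55_P1977812: tgCACAGAGAAACCCTGTCTcaatccctaa

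Cd244 A_55_P2900848: ttcctgccctggcttccctttacaatgacc

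The Cd2 probes A_55_P2077901 and A_66_P108659 overlap by 51 bases and therefore read 1 place in the transcript. The first 30 shared bases are shown, with nothing in capitals.

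Cd2, both probes: aagaaggcagagttcgtcatttccaataaa

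The Slamf6 probes are shown because 1 of them moved apart from the others. They share no place in the transcript, and nothing is in capitals.

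Slamf6 A_52_P45563: tgtcagcaatttgtcagtctctgtttcgac

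Slamf6 A_55_P2723449: ctgtttcccttattagaggataaatctgtg

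Slamf6 A_66_P140847: aggtggctatggggatggagttactcttct

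Signals are given below as scaled signals, meaning the scanner's processed intensity divided by the 75th percentile of its own array. Differences are on the log2 scale, Junb-deficient label minus control, with the standard error of the fit and n = 2 arrays per genotype. A probe was tested where at least 1 genotype had both its arrays well above background, and called at a limma adjusted p under 0.05 over all 33606 probes tested. An exact permutation test of 2 arrays against 2 cannot give a p below 0.333. The labels do not tell separate mice or cultures from repeat arrays, and the p-values cover no more than the spread among these 4 arrays, part or all of which may be technical.

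On each array 59.3% to 66.3% of spots were well above background, and no spot was saturated. The Junb probe A_55_P2011106 was not well above background on either array labelled Junb-deficient. Junb probe A_51_P159194, further 3′ on the same transcript, gave processed signals of 9791 and 9072 in the controls. In arrays 1 and 2 of the other genotype it gave 1053 and 10078, the second as bright as a control. The first Junb probe thus followed the labels on all 4 arrays and the second did not on array 2. Every direction below rests on the labels. All 8 T cell marker genes were well above background on every array. Foxp3, the defining gene of Treg cells, had scaled signals of 8.51 and 8.99 in the controls against 2.49 and 5.78 in the others. Its difference of -1.20 was not called (limma adjusted p = 0.135). Over the 7 tested probes of the 4 Treg marker genes, Ikzf2 was called higher by 3 and Ctla4 lower by 1. Of all probes tested, 5.53% were called higher and 1.25% lower. Ikzf2 probe A_52_P268911 passed the filter only through the arrays labelled Junb-deficient. Il2ra gave -1.67 and -0.91, neither called (limma adjusted p = 0.0669 and 0.297). The 7 colon epithelium genes summed to scaled signals of 0.454 to 0.588 per array, with limma calling none of their 3 tested probes (1 at an unadjusted p under 0.05). Among stromal and plasma cell genes the dim probes of Col1a1, Dcn and Jchain, not well above background on either control, were called higher. They passed the filter only through the arrays labelled Junb-deficient. Of the dimmest 20% of tested probes, to which they belong, 14.1% were called higher.

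**Figure D1:**
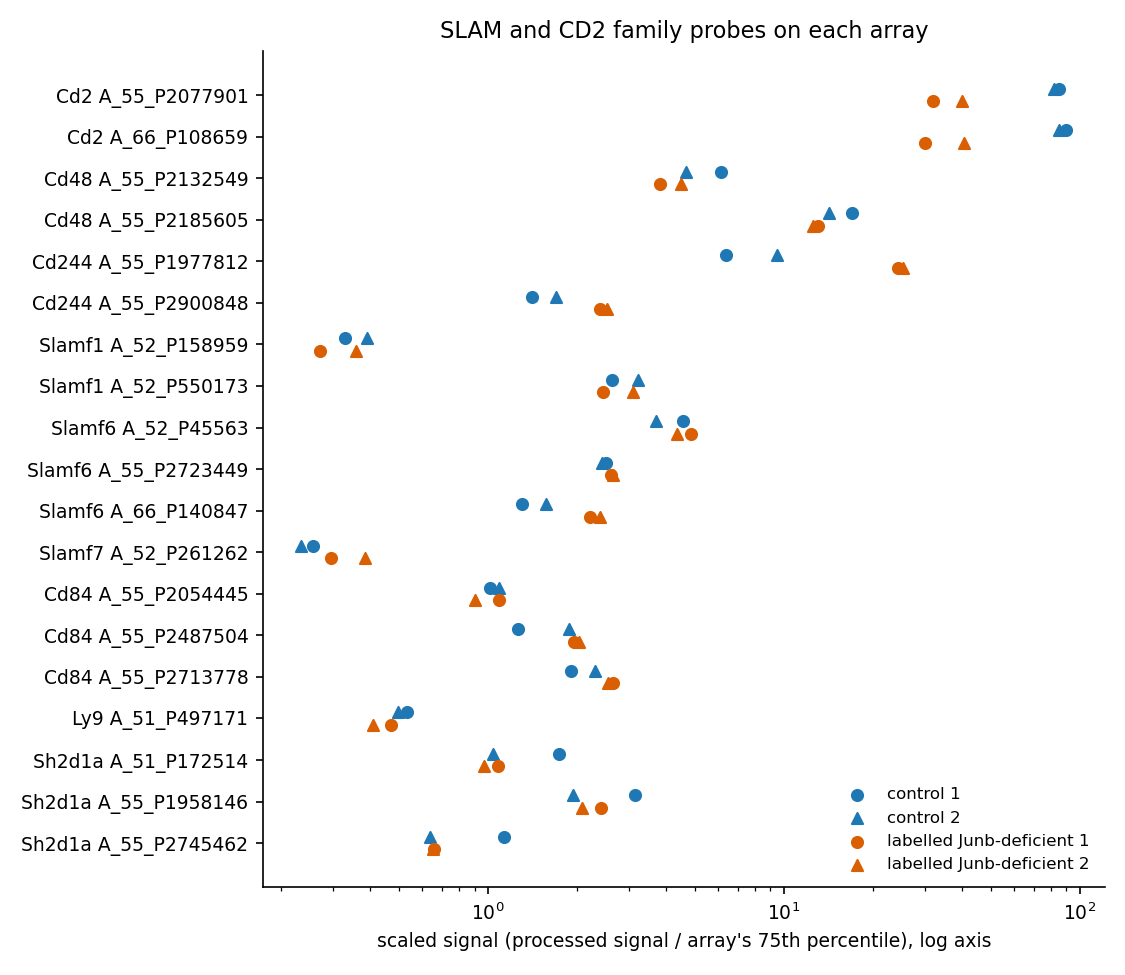
Scaled signal (horizontal, log axis) of the 19 tested probes of the family (rows), with 1 point per array. Circles are number 1 and triangles number 2 of each genotype, blue for controls and orange for arrays labelled Junb-deficient. The Cd2 points of the 2 genotypes lie apart with the controls higher, the Cd244 points lie apart with the controls lower, and most other rows have points close together.

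All 9 genes had at least 1 tested probe. The filter passed 19 of the 22 probes, and each of these was well above background on all 4 arrays. Of the 19, limma called 3, which is 15.8%, against 6.78% of all probes tested. The 3 were 1 Cd244 probe, higher on the arrays labelled Junb-deficient, and both Cd2 probes, lower. Since the Cd2 probes overlap, they are 1 observation of Cd2 rather than 2. Of all probes, 5.53% were called higher and 1.25% lower. This split rests on the scaling, since 81.6% of all calls were higher here and 18.5% when arrays were scaled to their median, a choice that moved the median of all probes from -0.01 to -0.54 and every single difference down by as much. The median log2 difference of the family was -0.09, and 14 of the 19 probes differed by less than 0.5. The genotypes did not overlap for 12 of the 19 probes (63.2%), a share that was 72.2% over all probes tested. Before adjustment 5 of the 19 had a p under 0.05, whereas 38.2% of all probes did.

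CD2 was the only member called lower. Probe A_55_P2077901 (transcript NM_013486, chromosome 3, 101079831 to 101079890 on the minus strand, build mm9) had scaled signals of 85.1 and 81.8 in controls 1 and 2, against 31.8 and 39.8 in arrays 1 and 2 of the Junb-deficient label. Probe A_66_P108659 (ENSMUST00000029456, 101079822 to 101079881) had 90.0 and 84.9 in the controls against 29.8 and 40.7 in the others. Both controls were far above both other arrays, and the controls lay closer to each other than the remaining arrays did.

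The log2 difference of Cd2 was -1.23 ± 0.19 by the first probe (limma adjusted p = 0.045, 95% interval -1.74 to -0.72) and -1.33 ± 0.22 by the second (limma adjusted p = 0.0495, interval -1.92 to -0.73). These differences correspond to a 2.34-fold and a 2.51-fold lower signal. Both probes belong to the top 20% of tested probes by mean signal. That group had a median log2 difference of -0.35, and 2.69% of its probes were at or below the smaller of the Cd2 decreases. Whether there was less Cd2 RNA per cell or fewer cells expressing it cannot be told apart in RNA from whole cultures. The call was lost under 8 of 13 alternatives for the first probe and 9 of 15 for the second. Among them were quantile normalization (-0.90 and -1.02, limma adjusted p = 0.0781 and 0.0828) and no filter (limma adjusted p = 0.127 and 0.131). It was also lost with the authors' log2 values (-0.90 and -0.97, limma adjusted p = 0.0598 and 0.0700) and without any 1 array (-1.55 to -1.07).

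Thy1, another bright T cell surface gene, was the 1 called probe of 13 in the T cell marker list, with scaled signals of 141 and 141 in the controls against 69.5 and 73.2 in the others (-0.98 ± 0.15, limma adjusted p = 0.0452). The median over that list was 0.00. Of the 13 probes 7 were positive.

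CD48, the partner of CD2 on the opposing cell, was not called. Probe A_55_P2185605 (NM_007649, chromosome 1, 173635201 to 173635260, mm9) had scaled signals of 17.0 and 14.2 in the controls against 13.1 and 12.5 in the others. Probe A_55_P2132549 (173629721 to 173629780) had 6.11 and 4.67 in the controls against 3.81 and 4.48 in the others. In both probes the lower control was still above the higher of the remaining arrays, by a small margin. The log2 differences were -0.28 ± 0.17 (limma adjusted p = 0.294, 95% interval -0.75 to 0.20) and -0.37 ± 0.22 (limma adjusted p = 0.266, interval -0.96 to 0.22). Both intervals include 0. The first probe lies in the top 20% of tested probes by mean signal (median -0.35) and the second in the next 20% (median -0.23). Each interval also includes the median of its own group. Under quantile normalization the first probe gave 0.03, and without control 1 the probes gave -0.15 and -0.18.

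CD244, the second receptor for CD48, is best known from NK cells and CD8 T cells, and its 3 probes gave 3 different pictures. Probe A_55_P1977812 (NM_018729, chromosome 1, 173515388 to 173515447, mm9) had scaled signals of 6.39 and 9.45 in the controls against 24.3 and 25.2 in the arrays with the Junb-deficient label. The groups lay far apart, with the controls also unlike each other. The log2 difference was 1.67 ± 0.25, a 3.18-fold higher signal (limma adjusted p = 0.0431, 95% interval 1.00 to 2.35). The call was lost under 9 of 15 alternatives, among them quantile normalization (1.95, limma adjusted p = 0.0575), no filter (adjusted p = 0.116), the mean of the gene's probes (1.17, adjusted p = 0.0509) and each array left out (1.39 to 1.95, adjusted p = 0.0888 to 0.147).

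Probe A_55_P2900848, which the files name Cd244 by transcript ENSMUST00000194797 (chromosome 1, 173539819 to 173539877), had 1.41 and 1.69 in the controls against 2.38 and 2.53 in the others. The genotypes did not overlap, and the difference of 0.67 ± 0.18 was not called (limma adjusted p = 0.0838, interval 0.19 to 1.15) and became 0.14 with arrays scaled to their median. The probe that spans an intron, A_52_P541344 (NM_018729, 173507474 to 173508000, 527 bases of genome for 60 bases of probe), was not well above background on any of the 4 arrays. Its processed signals were 1.87 and 1.35 in the controls against 1.02 and 1.21 in the others. It carries the same RefSeq transcript as the called probe, 7.39 kb upstream, and gives no fold.

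The 18 bases in capitals above, CACAGAGAAACCCTGTCT, occur in the B1 family of short interspersed repeats, which is spread through mouse genes and their transcripts. On this array the called Cd244 probe shared them with 8 probes of other genes. The length of the stretch and these 8 genes were chosen after their values were seen. They were probes named Elk1, Med16, Gm10856, Cfap300, Glrx2, Tia1, Mlxipl and Samd11. All 8 were tested, and 7 of them lay in the top 20% of tested probes by mean signal. All 8 gave positive log2 differences, from 0.38 to 1.03 with a median of 0.67, and limma called none (adjusted p = 0.0565 to 0.249), with 5 at an unadjusted p under 0.05.

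The probe named Elk1 had scaled signals of 707 and 747 in the controls against 926 and 1052 in the others. The probe named Cfap300 had 79.2 and 88.7 in the controls against 173 and 151 in the others. The probe named Tia1 had 18.9 and 18.3 in the controls against 42.8 and 33.9 in the others. In each of them both controls were below both arrays labelled Junb-deficient, the same order as in the Cd244 probe. Over all probes tested, the genotypes did not overlap in 1 direction or the other for 72.2%. No other probe of the family shared 18 bases with a probe of another gene, the other Cd244 probes included. With 14 shared bases the called probe had 23 such partners, of which 22 were tested, 19 were positive and 1 was called, with a median of 0.66. The part of this stretch in the Cd244 signal was not tested.

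Markers of cells known to express CD244 were read beside it. Among NK cell genes the defining receptor Ncr1 was not well above background on any array, and the summed scaled signal of the 5 NK genes was 1.13 and 1.5 in the controls against 0.81 and 1.23 in the others. The 1 tested NK probe, Klrd1, gave -1.04 (limma adjusted p = 0.0747). Cd8b1 gave 0.55 (limma adjusted p = 0.106), and Cd8a was near background. B cell genes summed to 4.75 and 1.52 in the controls against 8.88 and 5.03 in the others, all 8 tested probes were positive, and Ms4a1 and Ebf1 were called higher. Myeloid genes summed to 126 and 119 in the controls against 265 and 206 in the others, most of it from 1 Csf3r probe and 1 Itgam probe, with 9 of 10 tested probes positive, none called by limma (3 at an unadjusted p under 0.05), and Adgre1 at background. The part of B cell and myeloid RNA in the Cd244 and other higher readings was not tested.

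**Figure D2:**
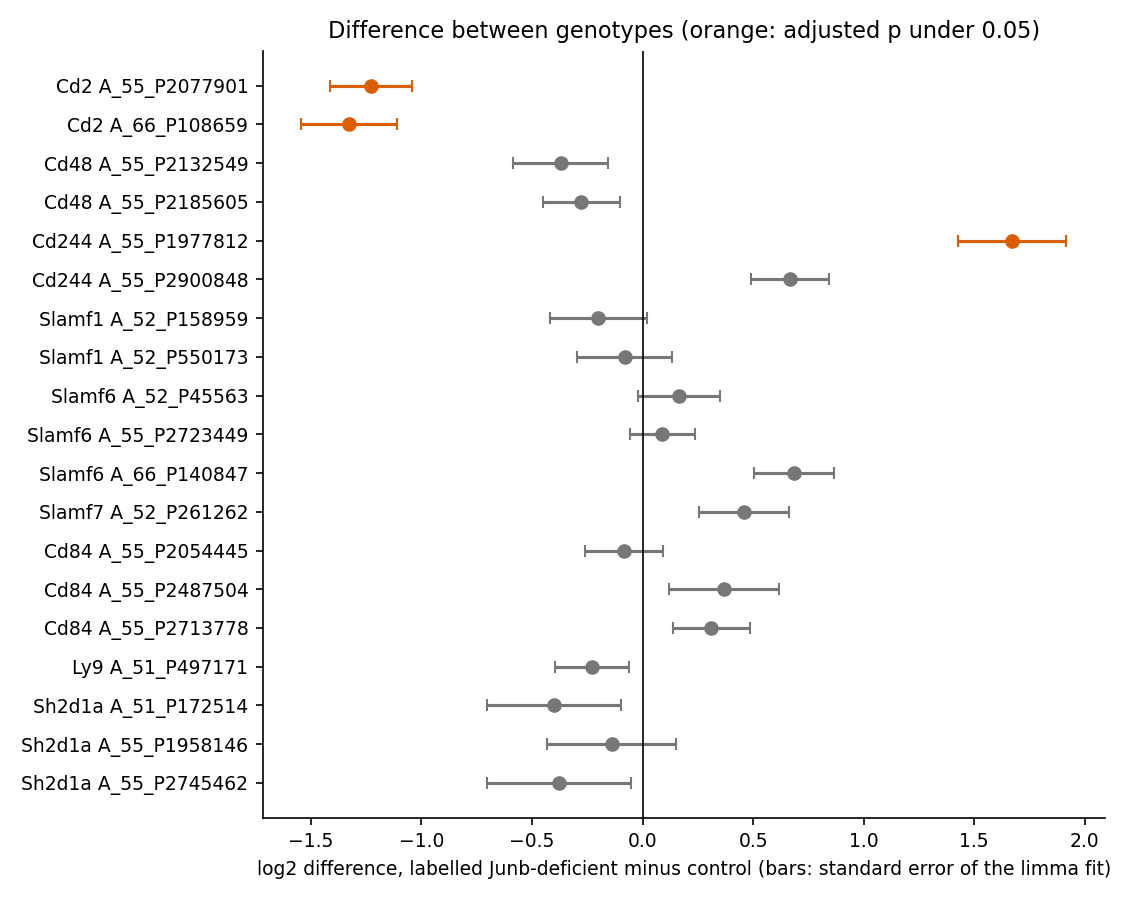
Log2 difference between genotypes (horizontal, Junb-deficient label minus control) for the 19 tested probes (rows), with bars of 1 standard error of the limma fit. Orange marks the 3 called probes, with Cd2 near -1.23 and -1.33 and Cd244 at 1.67, and the 16 grey probes lie between -0.40 and 0.68.

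SLAMF6, a self-binding receptor of T, B and NK cells, did not read alike over its probes. The intron-spanning probe A_52_P45563 (NM_030710, chromosome 1, 173866817 to 173868145, mm9) had scaled signals of 4.55 and 3.71 in the controls against 4.86 and 4.36 in the others, so that the genotypes overlapped. Probe A_55_P2723449 (same transcript, 173873869 to 173873928) had 2.51 and 2.42 in the controls against 2.60 and 2.64 in the others. Their differences were 0.17 ± 0.19 and 0.09 ± 0.15 (limma adjusted p = 0.534 and 0.669).

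The last probe, A_66_P140847 (ENSMUST00000195656, 173883204 to 173883263), had 1.30 and 1.57 in the controls against 2.21 and 2.38 in the others. Here both controls were below both arrays labelled Junb-deficient, and the difference was 0.68 ± 0.18 (limma adjusted p = 0.0839, 95% interval 0.19 to 1.18), or 0.15 with arrays scaled to their median. It lies 9.28 kb beyond the preceding probe and is assigned to another transcript. None of the Slamf6 probes was called, and the difference between the probes was not tested.

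SLAMF1 (CD150), the receptor that gave the family its name, gave small differences. Probe A_52_P550173 (NM_013730, chromosome 1, 173730343 to 173730402, mm9) had scaled signals of 2.62 and 3.22 in the controls against 2.45 and 3.09 in the others. In both genotypes number 2 was the higher array, and the genotypes overlapped. The difference was -0.08 ± 0.21 (limma adjusted p = 0.797, 95% interval -0.67 to 0.51). The intron-spanning probe A_52_P158959 (173718133 to 173722451) had 0.328 and 0.389 in the controls against 0.271 and 0.357 in the others, with a difference of -0.20 ± 0.22 (limma adjusted p = 0.522).

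CD84 (SLAMF5), a self-binding receptor of lymphocytes and myeloid cells, had 3 tested probes and no call. Probe A_55_P2713778 (NM_013489, chromosome 1, 173820593 to 173820652, mm9) had 1.91 and 2.30 in the controls against 2.65 and 2.55 in the others. Probe A_55_P2487504 (NM_001252472, 173785140 to 173785199) had 1.27 and 1.88 in the controls against 1.95 and 2.03 in the others. In both the higher control came close to the lower of the remaining arrays. The differences were 0.31 ± 0.18 and 0.37 ± 0.25 (limma adjusted p = 0.254 and 0.32). Without control 1 they were 0.18 and 0.084, and without control 2 they were 0.45 and 0.65. The intron-spanning probe A_55_P2054445 (NM_013489, 173816502 to 173818732) had 1.02 and 1.09 in the controls against 1.09 and 0.905 in the others, with overlapping genotypes and a difference of -0.09 ± 0.18 (limma adjusted p = 0.734).

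LY9 and SLAMF7 were read by 1 probe each. LY9 (CD229) is a self-binding receptor of T and B cells, and its probe A_51_P497171 (NM_008534, chromosome 1, 173518744 to 173518790 on the minus strand, mm9) had scaled signals of 0.532 and 0.495 in the controls against 0.468 and 0.409 in the others. The difference was -0.23 ± 0.17 (limma adjusted p = 0.35). SLAMF7, found on NK cells, plasma cells and activated lymphocytes, is known to signal without SAP. Its probe A_52_P261262 (NM_144539, 173569299 to 173569358 on the minus strand) had 0.255 and 0.234 in the controls against 0.294 and 0.383 in the others. Both orders were without overlap, Ly9 lower and Slamf7 higher, and the Slamf7 difference was 0.46 ± 0.20 (limma adjusted p = 0.177, 95% interval -0.10 to 1.02), or 0.27 without array 2 of the Junb-deficient label and 0.21 with quantile normalization. Without that array Ly9 gave -0.13.

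SAP, the adaptor encoded by Sh2d1a on the X chromosome, had 5 probes, of which 3 were tested and none was called. Probe A_55_P1958146 (NM_011364, chromosome X, 39875116 to 39875175, mm9) had scaled signals of 3.13 and 1.93 in the controls against 2.40 and 2.08 in the others. Probe A_51_P172514 (39874920 to 39874979) had 1.74 and 1.04 in the controls against 1.08 and 0.965 in the others. Probe A_55_P2745462 (39873846 to 39873905) had 1.14 and 0.636 in the controls against 0.654 and 0.653 in the others. In all 3 the controls differed more from each other than the genotypes did, with control 1 higher than control 2 by 0.69, 0.74 and 0.84 on the log2 scale.

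The Sh2d1a differences between genotypes were -0.14 ± 0.29, -0.40 ± 0.30 and -0.38 ± 0.33 (limma adjusted p = 0.741, 0.366 and 0.421), and all 3 overlapped. Without control 1 they became 0.21, -0.03 and 0.04. The remaining Sh2d1a probes, A_52_P641747 (AK042476) and A_55_P2012071 (ENSMUST00000101619), were well above background on no array and on 1 control only, and were not tested.

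**Figure D3:**
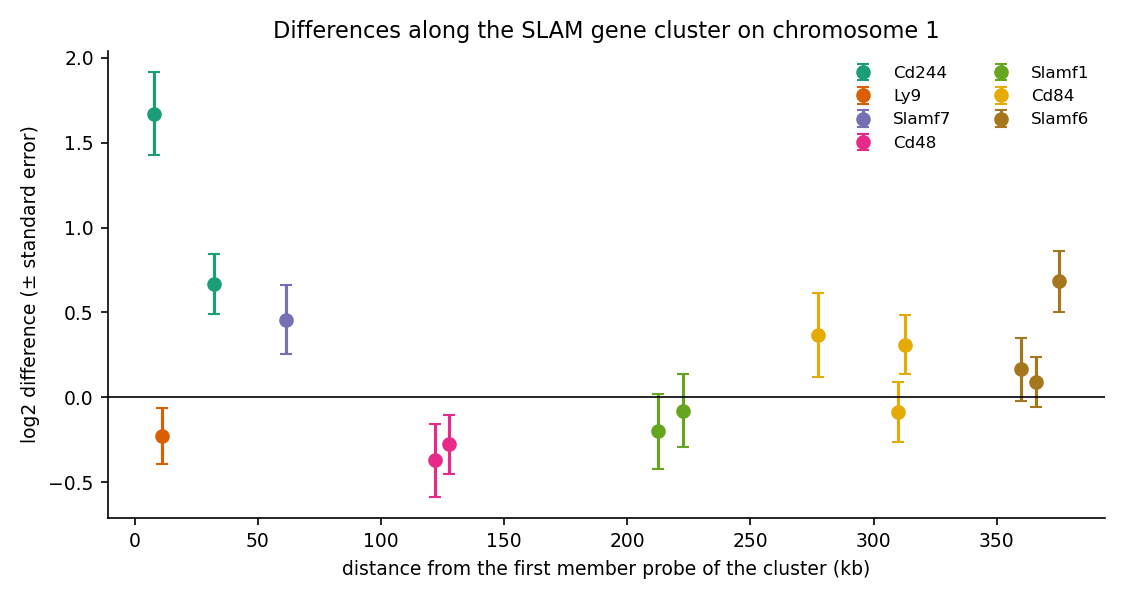
Log2 difference (vertical, Junb-deficient label minus control, bars of 1 standard error) of the tested probes in the SLAM gene cluster on chromosome 1, against distance from the first family probe of the cluster in kb. The 4 points of Cd48 and Slamf1 in the middle lie below 0 and most points towards either end above it, and only the Cd244 point at 1.67 is called.

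The genes of the family other than Cd2 and Sh2d1a sit side by side on chromosome 1. Their 15 probes covered 376 kb, and RefSeq lists the genes in the order Cd244a, Ly9, Slamf7, Cd48, Slamf1, Cd84 and Slamf6. Differences of both signs occurred along it. The Ly9 probe lies between the called Cd244 probe and the Cd244 probe named by transcript ENSMUST00000194797, and it gave -0.23 where they gave 1.67 and 0.67. Slamf7 gave 0.46, the next gene Cd48 gave -0.37 and -0.28, and Slamf1 gave -0.20 and -0.08. At the far end Cd84 and Slamf6 gave differences from -0.09 to 0.68.

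The promoters of the family were searched for the AP-1 motif TGANTCA, which reads the same on both strands, because JunB is an AP-1 subunit. RefSeq windows (GRCm38.p6) of 250 bases before to 50 bases after the start were at hand for 6 of the genes, and not for Cd2, Ly9 and Sh2d1a. The motif was present in 3 of the 6, in Cd244a, Slamf7 and Cd84, against 2565 of all 32851 windows (7.81%). Each match is shown with its flanks, along the gene's own strand and with the motif in capitals.

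Cd244a, chr1:171559060-171559089, plus strand: ctggttttttgTGAGTCActgtgcactctg

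Slamf7, chr1:171649023-171649052, minus strand: aaaacgtgagaTGACTCAttgtaacaagta

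Cd84, chr1:171839457-171839486, plus strand: tcagtttctctTGAGTCAattttcttgttt

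The matches begin 122, 42 and 229 bases before the start. The tested probes of these 3 genes gave 1.67 and 0.67 for Cd244, 0.46 for Slamf7, and 0.37, 0.31 and -0.09 for Cd84. Those of the genes without a match gave -0.37 and -0.28 for Cd48, -0.20 and -0.08 for Slamf1, and 0.17, 0.09 and 0.68 for Slamf6. The Cd244 value of 1.67 comes from the probe with the shared stretch. The value of 0.67 comes from probe A_55_P2900848, 24.4 kb away and named by another transcript, with the Ly9 probe between them. The intron-spanning Cd244 probe was not well above background on any array. Scaling arrays to their median moved all of these down alike. It gave 1.14 and 0.14 for Cd244, -0.075 for Slamf7, and -0.16, -0.22 and -0.62 for Cd84. Genes without a match then gave -0.90 and -0.81 (Cd48), -0.73 and -0.61 (Slamf1), and -0.37, -0.44 and 0.15 (Slamf6). A match to these letters is a description of the window and does not show that AP-1 binds there, and no test was made on 6 windows.

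The relatives and signalling partners of the family were read from a list of 22 genes, 19 of which had tested probes. None of their 41 tested probes was called higher or lower by limma. At an unadjusted p under 0.05 were 9 of them (22.0%, against 38.2% of all probes), 6 lower. Scaling to the median called 16 lower (39.0%), against 31.4% of all probes. The median difference was -0.26, and 11 were positive. The 4 genes with the smallest p were Rasa1, Dok2, Cd247 and Vav1. Rasa1, a negative regulator of RAS, had scaled signals of 3.26 and 3.22 in the controls against 1.89 and 2.09 in the others (-0.70 ± 0.16, limma adjusted p = 0.0699, probe A_51_P498322), and its other probes gave -0.26 and -0.44. Dok2, an adaptor that binds RASA1, had 16.6 and 14.1 in the controls against 8.96 and 9.82 in the others (-0.71 ± 0.17, limma adjusted p = 0.0778).

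Vav1, an exchange factor downstream of CD2 and SLAM receptors, had 51.8 and 52.1 in the controls against 35.3 and 35.5 in the others (-0.55 ± 0.15, limma adjusted p = 0.0844). Cd247, the ζ chain of the T cell receptor complex, gave 1.54 by 1 probe (A_55_P2212968, limma adjusted p = 0.079) and -0.31, -0.21 and 0.17 by its other 3. Fyn, the kinase that SAP recruits, gave -0.05 ± 0.16 (limma adjusted p = 0.837). Sh2d1b1, which encodes the SAP relative EAT-2, was not well above background on any array, and Sh2d1b2 and Slamf8 were above it on 1 array each. Slamf9, a further SLAM relative named here after its values were seen, had scaled signals of 2.88 and 0.261 in the controls against 0.0349 (not well above background) and 0.120 in the others. Its controls stood further apart than control 2 did from the last array, and its fitted difference of -3.74 ± 1.37 was not called (limma adjusted p = 0.131).

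For the 2 members with the smallest p, the genes with the most similar pattern were found by the root mean square distance between centred log2 values over the 4 arrays. Nearest to the called Cd244 probe was Cp (distance 0.0280, difference 1.64), and 39 probes lay within 0.1 of it. Nearest to Cd2 probe A_55_P2077901 were Tmem205 (0.0230, difference -1.27) and Ppnr (0.0345, -1.18), and 59 probes lay within 0.1. With 4 arrays many probes are this close to each other.

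The authors' deposited table holds 13 rows for the family, covering the 9 genes, out of 26594. None of the 13 had an adjusted p under 0.05 in the authors' deposited table, against 2.41% of all its rows. Before adjustment 6 of the 13 were under 0.05 in the authors' deposited table, against 32.8% of all rows. In the authors' deposited table Cd244 had log2 differences of 1.89 (adjusted p = 0.0521) and 0.76 (0.0789) by the limma-type statistics it lists, and Cd2 had -0.90 (0.0598) and -0.97 (0.07). The authors' deposited table gave 0.71 (0.0729) for Slamf6 transcript ENSMUST00000195656, and between -0.32 and 0.38 for the other 8 rows. The signs of the 3 called probes were the same in both sources.

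**Figure D4:**
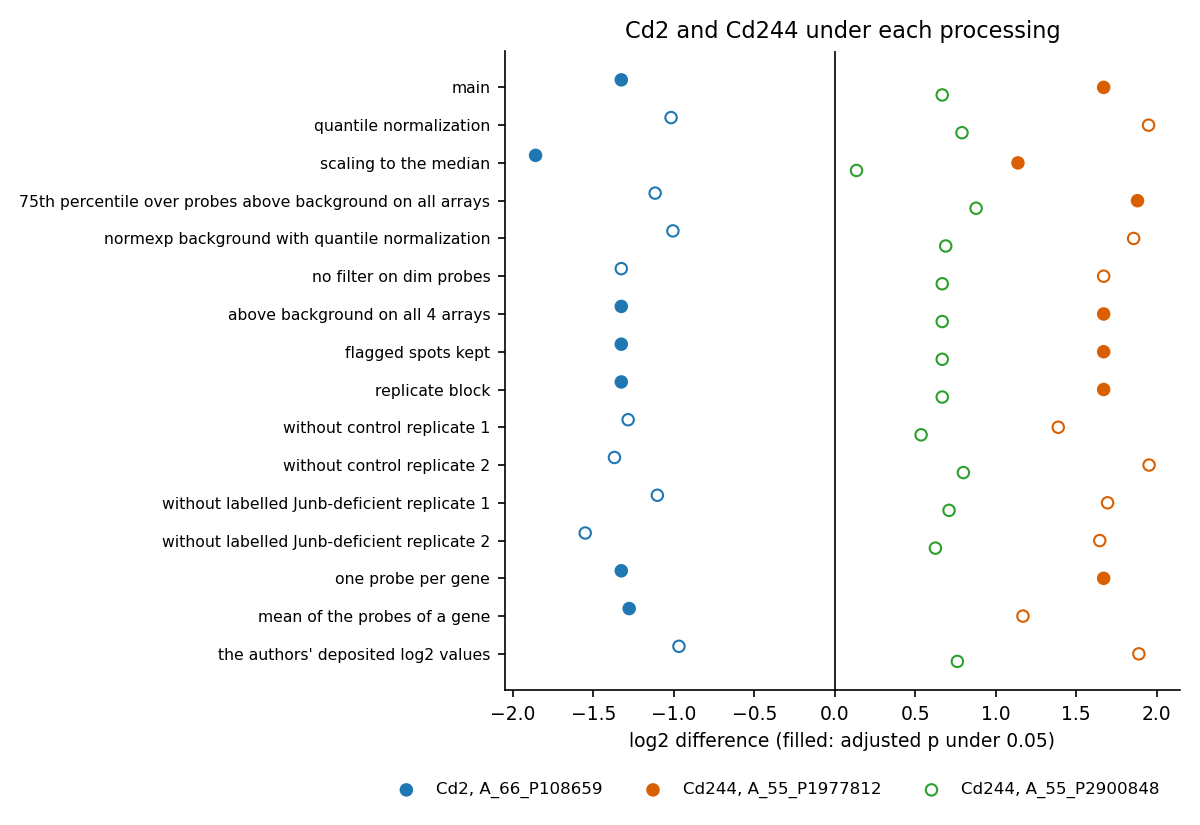
Log2 difference (horizontal, Junb-deficient label minus control) of 1 Cd2 probe (blue) and both tested Cd244 probes (orange and green) under the main processing and each alternative (rows). Filled points have a limma adjusted p under 0.05. Every Cd2 point is below 0 and every Cd244 point above 0, whereas the points change from filled to open under several alternatives.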

How the data were processed

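The deposited scanner files hold, per the file headers, a mean, a local background and a processed intensity for each spot, made by the authors with Agilent Feature Extraction 11.5.1.1. The processed intensity is background-subtracted within an array and not scaled between arrays. The table deposited by the authors gives log2 values per array, log2 differences and p-values. The sources used here do not say how its log2 values were made. Each column followed its own array best (Spearman correlation across probes 0.966 to 0.975).

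Groups and numbers come from the sample titles. Control spots and spots flagged as uneven or outlying (108 to 215 per array) were left out, spots of a probe were averaged, and 295 probes that lacked a usable spot on some array were removed. Processed intensities were divided by the array's 75th percentile over probes (151 and 145 for controls, then 119 and 101) and put on the log2 scale. A genotype with both arrays well above background let a probe in, which gave 33606 probes. They were fitted with limma 3.58.1 in R 4.3.3 (lmFit, then eBayes, without covariates), with Benjamini-Hochberg adjustment over all of them. Errors are standard errors of the fit. On simulated data with 100 probes changed at each size, limma recovered 25% of changes of 2 and 65% of changes of 4 on the log2 scale. Few simulated probes changed, whereas 38.2% of all tested probes had an unadjusted p under 0.05 in the data. The adjusted cut was thus stricter in the simulation, and these shares do not give the recovery in the data. Gene names come from the files, updated through RefSeq (GRCm38.p6), and probe positions from the files (mm9, without an annotation of that build). Stretches shared between probes were searched at 14 and 18 bases on the printed strand. Tables were made with pandas 2.3.3 and numpy 2.4.6 in Python 3.11.15, intervals with scipy 1.17.1 and plots with matplotlib 3.10.9.

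All probes of the 9 genes are reported, the partner and marker lists are given by counts with the called genes or up to 4 genes of smallest p, and the genes of similar pattern are the 2 nearest for each of the 2 members of smallest p, of which 1 is not reported here. The members and lists were chosen with earlier results of these data known. The alternatives concern scaling, background, the filter, flagged spots, the probe or gene as unit, the number as a block, each array left out and the authors' values. The number of arrays limits the precision.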

Additional observations from a re-analysis of the deposited data

How the results depend on the processing

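Directions of the Cd2 and called Cd244 probes held in all alternatives run. The main setting called 1 member probe higher and 2 lower, and 2277 probes in all. Quantile normalization called 0 and 0 of the family and 650 in all, normexp background with quantile normalization 0, 0 and 343, and the authors' log2 values 0, 0 and 641 (limma). At an unadjusted p under 0.05 these called 10833, 10513 and 8715 probes. Without the filter limma called 0 probes, with 12028 at an unadjusted p under 0.05, and likewise 0 without any 1 array, with 7545 to 11304 (the lone array of a genotype is then assumed to vary like the others). Scaling to the median called 12972 probes and 16 partner probes lower, with the median of all probes at -0.54. The 75th percentile over probes above background on all arrays called 1 member lower and put that median at 0.20. Only probes above background on all 4 arrays gave 1377 calls, 1 probe per gene 1 Cd2 call lower, and the mean of a gene's probes 0 members higher and 1 lower. Numbers 1 and 2 lie in rows 1 and 2 of the slide. Same-numbered arrays deviated together (r = 0.45 across 33606 probes), but with only 2 pairs and no label tying them the numbers were not taken as pairs. The replicate block gave 8522 calls in all, 1 partner probe higher, and the same member counts. Signs turned in uncalled probes: with quantile normalization Cd48 A_55_P2185605 (0.027), Sh2d1a A_55_P1958146 (0.024) and Slamf1 A_52_P550173 (0.10), the last 2 also with normexp background (0.019 and 0.084). With median scaling Cd84 A_55_P2487504 (-0.16) and A_55_P2713778 (-0.22), Slamf6 A_52_P45563 (-0.37) and A_55_P2723449 (-0.44) and Slamf7 (-0.075) turned, all above the median of all probes. With the 75th percentile over probes above background Cd84 A_55_P2054445 (0.12), Sh2d1a A_55_P1958146 (0.072) and Slamf1 A_52_P158959 (0.011) and A_52_P550173 (0.13) turned. Leaving out each array gave ranges of -0.49 to 0.21 for Sh2d1a A_55_P1958146, -0.80 to 0.039 for A_55_P2745462, -0.25 to 0.088 for Slamf1 A_52_P550173, -0.40 to 4.8e-04 for A_52_P158959, -0.22 to 0.046 for Cd84 A_55_P2054445, and -2.85 to 0.65 for the 3′ Junb probe. Beyond the settings' construction the cause was not tested. A slide or scan block was not run, since all arrays share 1 slide and 1 scan.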
